A study of Bubalus bubalis with 6 samples.

Results

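Potassium and sodium channel subunits were followed in water buffalo muscle stem cells (MuSCs) before and after they were switched to a medium that lets them fuse into myotubes. The members were the protein-coding genes of the deposited gene table whose symbol starts with KCN or SCN and goes on with a capital letter or a digit. The rule found 107 genes among 24616 listed genes, of which 19994 were protein-coding. By symbol, 88 were potassium channel genes with their auxiliary subunits and 18 were sodium channel genes. The remaining gene, SCNM1, encodes a splicing factor named for its effect on a sodium channel transcript and is not a channel subunit. PolyA-selected RNA was sequenced from 3 samples of proliferating cells in growth medium with fetal bovine serum (GM samples) and from 3 samples of differentiating cells in medium with a low share of horse serum (DM samples). All samples came from primary cells of fetal longissimus muscle, freed with type I collagenase and trypsin. Nothing in the labels states that the samples were separate cultures or animals, so p-values here measure the spread between these samples, which may be technical.

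Potassium channels let potassium leave the cell and hold the membrane at a negative resting potential, while voltage-gated sodium channels carry the rapid upstroke of the muscle action potential. Voltage-gated potassium channels are built from pore subunits joined by silent modifier subunits and small auxiliary subunits. Calcium-activated channels open on internal calcium, inward rectifiers and tandem-pore (K2P) channels set the resting potential, and ATP-sensitive channels pair an inward rectifier with a sulfonylurea receptor. In myoblasts, hyperpolarization by potassium channels is known to precede fusion, and adult muscle fibres rely on the sodium channel encoded by SCN4A.

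Each sample had between 35615864 and 40305237 counts on genes. DM replicate 3 stood apart from the other DM samples. In chi-square units per degree of freedom, a comparison of its gene counts with those of DM replicates 1 and 2 gave 37.9 to 38.5, whereas DM replicates 1 and 2 gave 10.99 with each other and GM samples 5.84 to 9.88 among themselves. The summed level of 10 skeletal myogenic markers was 2954 to 3558 CPM (counts scaled to a common library total) in GM samples and 7017 to 9834 CPM in DM samples, with the myogenic regulators MYOD1 and MYOG counted in every sample. Of these 10 markers 6 had a positive and 4 a negative log2 fold change. Those of differentiated muscle, MYH3, MYLPF and ACTA1, were called higher, and MYF5, a factor of undifferentiated myogenic cells, was called lower (-2.70). Fibroblast markers were also abundant: 9 of 9 had counts, and their sum was 35686 to 36472 CPM in GM and 97446 to 123145 CPM in DM samples, with the fibroblast gene TCF21 at 0 to 7 counts. Most of that sum came from the collagens COL1A1, COL1A2 and COL3A1. Of 8 tested fibroblast markers 5 were called higher and 0 lower, and POSTN had a negative log2 fold change (-0.93, adjusted p = 0.00316) under the fold threshold. Summed smooth muscle and pericyte markers lay at 1345 to 1545 CPM in GM and 1709 to 2046 CPM in DM samples, with the pericyte marker RGS5 at 0 to 4 counts. ACTA2 made up most of this sum and was not called (log2 fold change 0.18, adjusted p = 0.0696). Endothelial markers summed to 5.74 to 5.83 CPM and 7.02 to 9.35 CPM, and immune markers to 5.96 to 7.60 CPM and 7.03 to 13.3 CPM, with LYZ at 0 in every sample. Both lists held calls in either direction. Of 6 tested endothelial markers TEK was called higher (1.51), and VWF (-1.41) and CDH5 (-2.24) were called lower. Of 3 tested immune markers CD14 was called higher (2.75) and CD68 lower (-1.04). The part of any other cell type in the results below was not tested, and in bulk RNA fewer cells of a type and less RNA per cell cannot be told apart.

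Channel transcripts were a small share of the RNA. Of the 107 genes, 96 had at least 1 count and 11 had 0 counts in all samples, among them KCNA2, KCNA10, KCNK18 and SCNN1G; a count of 0 allows up to 3 counts in a sample. Another 27 had 1 to 9 counts over the 6 samples, which left 69 genes with enough counts to be tested. Together the members took 0.0254 to 0.0263% of the counts of GM samples and 0.0330 to 0.0387% of the counts of DM samples. Their summed level was 249 ± 4.55 CPM (SD, n = 3) in GM and 361 ± 33.9 CPM (SD, n = 3) in DM samples. The 3 genes with the highest level made up 49.7% of this sum in GM and 48.5% in DM samples.

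Per length of transcript, the order of the members differed between the phases at all but the top. KCNK12, a K2P subunit that conducts little current on its own, had the highest RPKM (reads scaled by transcript length and by the sample's total) in both phases, at 62.4 ± 5.44 (SD, n = 3) in GM and 52.4 ± 6.82 in DM samples. In GM samples it was followed by SCNM1 at 29.4 ± 1.43 RPKM, the small-conductance calcium-activated channel KCNN2 at 10.1 ± 0.809 RPKM and the auxiliary subunit KCNE4 at 9.02 ± 1.12 RPKM, of which the last pair lay within 1 SD of KCNE4. In DM samples KCNE4 came second at 31.7 ± 5.69 RPKM, ahead of SCNM1 at 22.2 ± 1.64, the silent subunit KCNG1 at 10.7 ± 4.80, the auxiliary subunit KCNE5 at 9.41 ± 3.12 and the inward rectifier KCNJ8 at 8.09 ± 2.49 RPKM. The last 3 of these did not differ beyond their spread. KCNN2 stood at rank 22 in DM samples, with 1.32 ± 0.0162 RPKM, and KCNJ8 at rank 42 in GM samples, with 0.174 ± 0.0824 RPKM. A mean of at least 1 RPKM was reached by 17 members in GM and by 27 in DM samples.

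**Figure D1:**
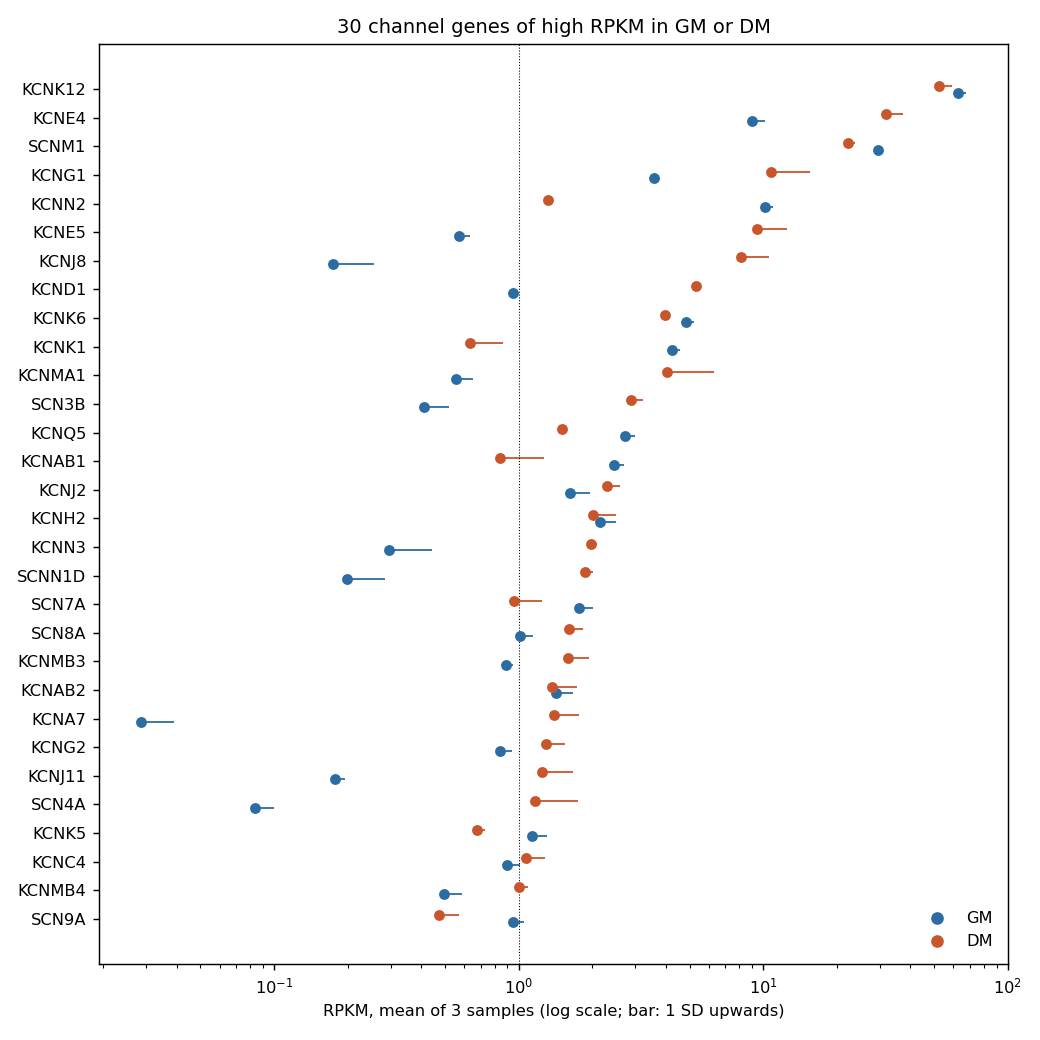
Mean deposited RPKM (log axis) of 30 members with a high mean in either phase, with GM samples in blue and DM samples in orange, points for the mean of 3 samples, bars for 1 SD upwards and a dotted line at 1 RPKM. KCNK12 was the highest in both phases, KCNN2 lay far to the right in GM only, and KCNJ8, KCNA7, SCN4A and SCNN1D were under 0.2 RPKM in GM and above 1 RPKM in DM samples.

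More channel genes rose than fell. A gene was called when its log2 fold change, DM over GM, was above 1 in size and its adjusted p-value under 0.05. Of the 69 tested members, 33 were called, 24 higher and 9 lower in DM samples. That is 47.8% of the tested members called, 34.8% higher and 13% lower. Over all 15576 tested genes, 25.3% were called, 15.0% higher and 10.3% lower. The median log2 fold change of the tested members was 0.72, against 0.03 over all tested genes. It was 0.60 with KCNV2, which had no count in GM samples, set against 3 counts in each GM sample. The GM and DM ranges did not overlap in CPM for 66.7% of the tested members, close to the 68.8% of all tested genes. They were also apart for all of the 33 called members, which a call nearly requires. Among all tested genes, 71 of 3936 called genes had overlapping ranges. Another 9 members had an adjusted p-value under 0.05 with a smaller fold change. Without DM replicate 3, 30 members were called, 21 higher and 9 lower. Of the potassium channel genes 28 of 55 tested were called, 20 higher and 8 lower, and of the sodium channel genes 5 of 13 tested, 4 higher and 1 lower.

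**Figure D2:**
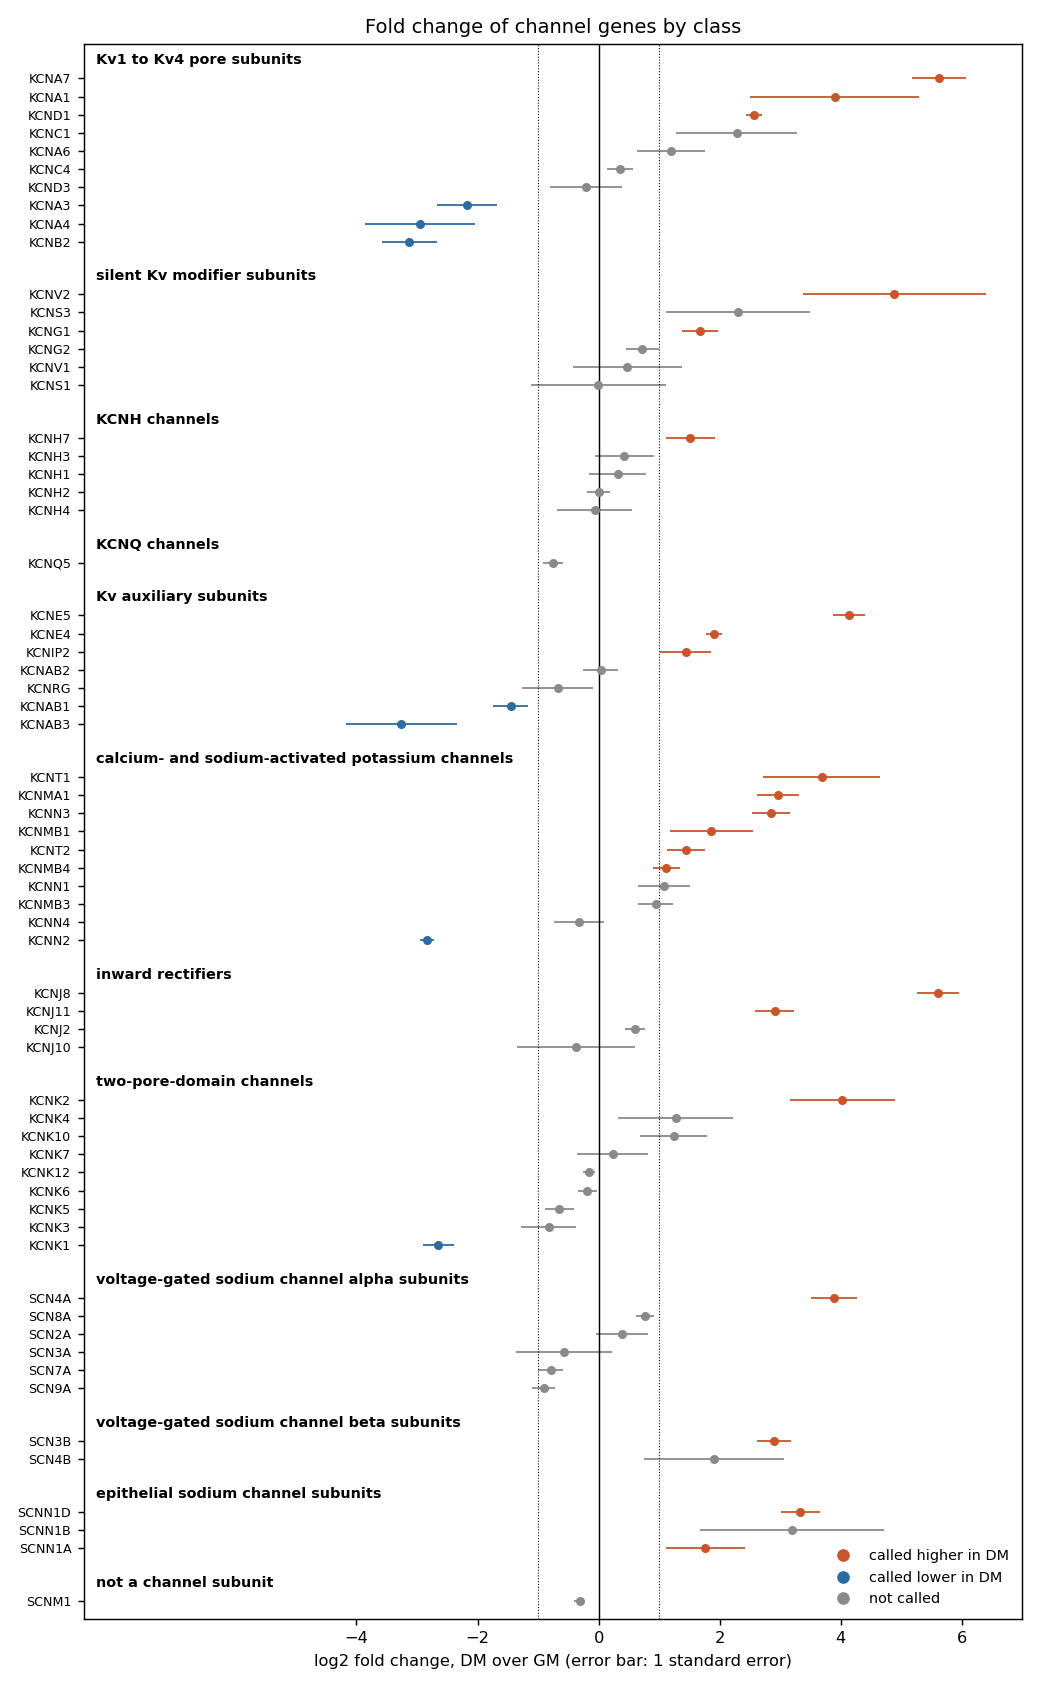
Log2 fold change, DM over GM, of 64 tested members, grouped by class, with bars for 1 standard error and dotted lines at a log2 fold change of 1 in either direction. Orange points were called higher (22 shown), blue points called lower (7 shown) and grey points not called; the calcium- and sodium-activated class held 6 orange points, and the Kv1 to Kv4 pore subunits held 3 orange and 3 blue points.

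The pore subunits of voltage-gated potassium channels moved in both directions. Of 16 listed, 12 were tested, 4 were called higher and 4 lower, or 66.7% called against 25.3% of all tested genes. KCNA7, a delayed rectifier subunit of skeletal muscle and heart, had 2, 1 and 2 counts in GM and 59, 74 and 104 counts in DM samples. It went from close to no counts to a modest level in every DM sample, with a log2 fold change of 5.62 ± 0.45 (SE, adjusted p = 1.40e-06) and a ratio of CPM of 53.4, whose counting interval ran from 22.6 to 166. KCND1, an A-type subunit that inactivates quickly, had 88, 84 and 72 counts in GM and 398, 422 and 465 counts in DM samples. Its samples lay close together within each phase, and it rose by 2.57 ± 0.14 on the log2 scale (adjusted p = 7.82e-08).

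In the other direction, KCNB2, a delayed rectifier subunit, had 81, 75 and 84 counts in GM and 11, 11 and 2 counts in DM samples. It fell by 3.13 ± 0.46 (adjusted p = 0.000138), and DM replicate 3 was the lowest. KCNA3 (17, 24 and 26 counts against 3, 5 and 5) and KCNA4 (9, 5 and 6 against 0, 1 and 1), both subunits of the family of KCNA7, were also called lower at much lower counts, with adjusted p-values of 0.00287 and 0.0155. KCNA4 was no longer called without GM replicate 1 (adjusted p = 0.0554).

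KCNA1 was called higher on few counts. It rested on DM replicate 3, with 1, 0 and 1 counts in GM and 1, 2 and 29 counts in DM samples, and could not be tested without that sample. Without any one of the GM replicates its adjusted p-value lay between 0.0702 and 0.104. KCNC4, a pore subunit known from muscle, had 122, 109 and 86 counts in GM and 140, 102 and 115 in DM samples, with overlapping groups (log2 fold change 0.36 ± 0.21, adjusted p = 0.173). KCND3 had 53, 40 and 21 counts in GM and 52, 26 and 7 counts in DM samples, a wide and overlapping spread (adjusted p = 0.777). KCNA5 reached 0 to 2 counts in every sample and was not tested.

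Silent subunits form no channel alone but change the gating of delayed rectifier pore subunits such as KCNB2. KCNG1 was the most abundant of them, with 227, 223 and 198 counts in GM and 791, 719 and 312 counts in DM samples. It rose by 1.68 ± 0.30 (adjusted p = 0.000566) while KCNB2 fell, and DM replicate 3 held less than the other DM samples but more than any GM sample. KCNV2 was called too, with 0 counts in each GM sample and 5, 2 and 3 counts in DM samples. Its mean DM level was 1.27-fold that of 3 counts in each GM sample, with no allowance for counting error in DM samples. It could not be tested with any one of the DM samples left out. The other 4 tested silent subunits were not called, so 33.3% of the tested class was called, against 25.3% of all tested genes.

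Among the auxiliary subunits 5 of 7 tested genes were called, 3 higher and 2 lower, or 71.4% against 25.3% of all tested genes. KCNE4, a single-pass membrane protein that damps Kv1 channel currents, had 1009, 1035 and 746 counts in GM and 2724, 2724 and 3841 counts in DM samples. It was the member with the most counts in DM samples and rose by 1.91 ± 0.13 (adjusted p = 5.17e-07). KCNE5, an X-linked subunit of the same family that acts on KCNQ channels, had 35, 28 and 30 counts in GM and 292, 552 and 627 counts in DM samples. The lowest DM sample lay far above the highest GM sample, with a log2 fold change of 4.14 ± 0.27 (adjusted p = 3.54e-07). KCNE3, known from skeletal muscle, had 0 or 1 count in every sample on a gene model of 300 bases and was not tested.

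KCNIP2, a calcium-binding partner of the A-type subunits of the KCND family, had 31, 12 and 12 counts in GM and 33, 44 and 56 counts in DM samples. It was called higher (1.44 ± 0.42, adjusted p = 0.0116), but GM replicate 1 came close to the lowest DM sample, and without GM replicate 2 the adjusted p-value was 0.0507. Of the cytoplasmic beta subunits of Kv1 channels 2 were called lower. KCNAB1 had 288, 250 and 273 counts in GM and 61, 60 and 144 counts in DM samples, a fall of 1.45 ± 0.29 (adjusted p = 0.00128) in which DM replicate 3 kept the most. KCNAB3 had 13, 5 and 7 against 1, 0 and 1 counts and was called lower (adjusted p = 0.00998), and KCNAB2 was not called (log2 fold change 0.04 ± 0.29, adjusted p = 0.921).

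**Figure D3:**
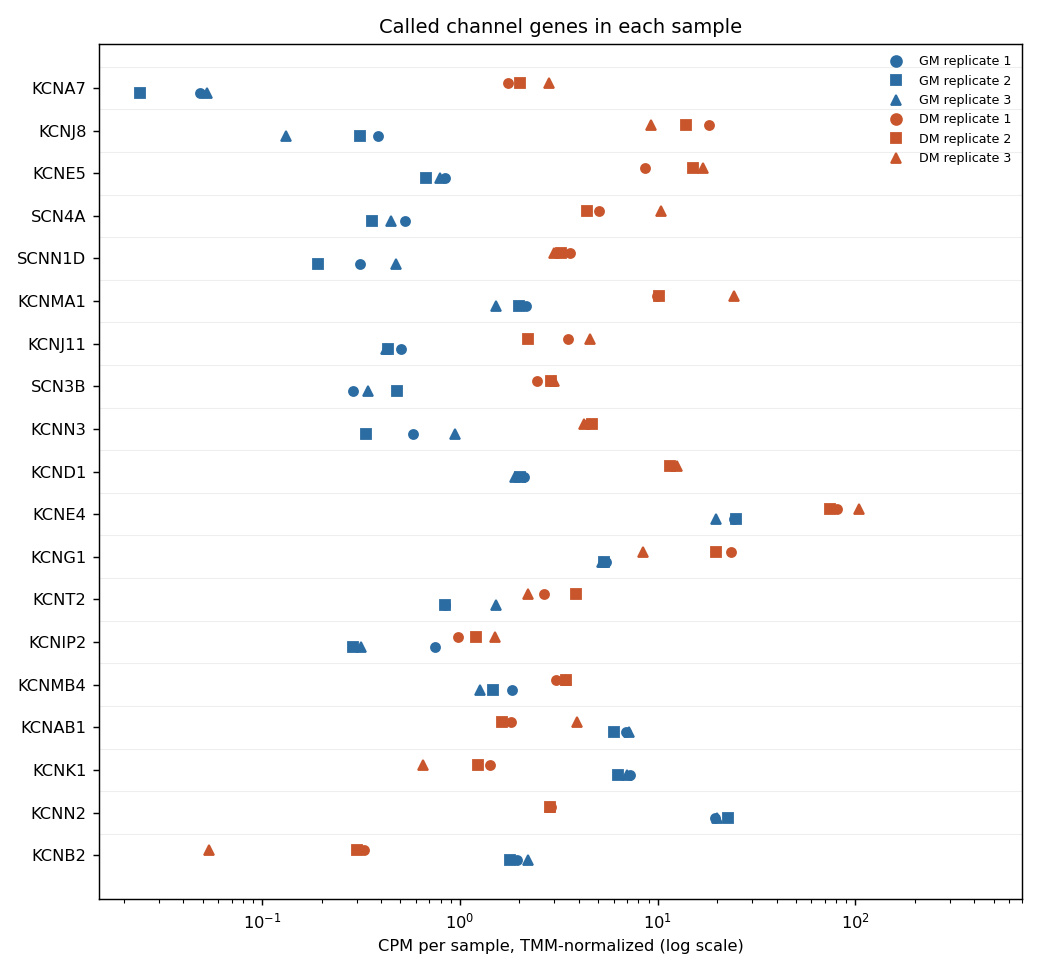
TMM-normalized CPM (log axis) in each of the 6 samples for 19 called members with a mean of at least 1 CPM in a phase, ordered by fold change, with GM samples in blue, DM samples in orange and a marker shape for each replicate number. In every row the 3 GM samples were separate from the 3 DM samples, and DM replicate 3 (orange triangle) lay to the side of the other DM samples for KCNMA1, SCN4A, KCNG1, KCNAB1 and KCNB2.

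KCNQ and KCNH channels open slowly or at negative voltages and damp excitability. KCNQ5, a subunit of myoblasts and muscle, had 177 to 235 counts in GM and 108 to 118 counts in DM samples. Its change of -0.75 ± 0.16 had an adjusted p of 0.00199 but was under the fold threshold. KCNH1, the ether-à-go-go channel described before myoblast fusion, had 14, 19 and 7 counts in GM and 12, 14 and 18 in DM samples, with overlapping groups (adjusted p = 0.585). KCNH2, which carries a repolarizing current of the heart, had 339, 294 and 225 counts in GM and 248, 313 and 198 in DM samples, with overlapping groups and a log2 fold change near 0 (SE 0.19, adjusted p = 0.988). Of 5 tested KCNH genes 1 was called, or 20% against 25.3% of all tested genes. It was KCNH7, with 9 to 14 counts in GM and 23 to 39 in DM samples (adjusted p = 0.00696).

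Of the calcium- and sodium-activated channels 7 of 10 tested genes were called, 6 higher and 1 lower. That is 70%, against 25.3% of all tested genes. The small-conductance subunits KCNN2 and KCNN3 moved in opposite directions. KCNN2 had 805, 939 and 756 counts in GM and 98, 105 and 106 counts in DM samples. It was among the most abundant members in GM and fell by 2.84 ± 0.12 (adjusted p = 1.58e-08), with DM samples nearly alike. KCNN3, a related small-conductance subunit of immature and denervated muscle, had 24, 14 and 36 counts in GM and 150, 171 and 157 counts in DM samples. It rose by 2.84 ± 0.32 (adjusted p = 1.84e-05). On the CPM scale KCNN2 stood at 20.6 ± 1.69 in GM and 2.88 ± 0.0201 in DM samples, and KCNN3 at 0.622 ± 0.309 and 4.45 ± 0.215. Per length, KCNN3 lay above KCNN2 in DM samples, at 1.97 ± 0.116 against 1.32 ± 0.0162 RPKM. KCNN4, the intermediate-conductance relative, had 59, 59 and 43 counts in GM and 41, 15 and 57 in DM samples and was not called (log2 fold change -0.33 ± 0.41, adjusted p = 0.510).

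The pore subunit of the large-conductance channel and 2 of its 3 tested beta subunits were called higher. KCNMA1, its pore subunit, had 90, 83 and 58 counts in GM and 335, 374 and 897 counts in DM samples. DM replicate 3 held over 2 times the level of the other DM samples, and the log2 fold change was 2.96 ± 0.34 with that sample (adjusted p = 2.61e-05) and 2.41 without it. KCNMB4, a beta subunit that slows gating, had 76, 61 and 48 counts in GM and 103, 126 and 127 counts in DM samples, and was called higher at 1.12 ± 0.22 (adjusted p = 0.00110). KCNMB1, the beta subunit known from smooth muscle, had 3, 11 and 11 counts in GM and 12, 15 and 56 counts in DM samples. Its call (adjusted p = 0.0349) rested on DM replicate 3, and without it the log2 fold change was 0.88 with an adjusted p of 0.210. It was also lost without any one of the GM replicates, with adjusted p-values of 0.0544 to 0.117. KCNMB3 was just under the fold threshold with all samples, at 0.94 ± 0.29 (adjusted p = 0.0157), and was called higher without GM replicate 3 (1.0025), without DM replicate 1 (1.04) or without DM replicate 3 (1.02).

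The sodium-activated subunits were both called higher. KCNT2 had 35, 35 and 58 counts in GM and 90, 141 and 82 counts in DM samples. Its groups did not overlap, and it rose by 1.44 ± 0.32 (adjusted p = 0.00230). KCNT1 had 0, 0 and 5 counts in GM and 31, 21 and 9 counts in DM samples (adjusted p = 0.00660), so its level stayed low in both phases. Its fitted log2 fold change of 3.68 went to 7.46 without GM replicate 3, which held all of its GM counts.

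Of the 4 tested inward rectifiers 2 were called, or 50% against 25.3% of all tested genes. Both were called higher, and both are pores of ATP-sensitive channels. KCNJ8, the pore subunit of the vascular type of ATP-sensitive channel, had 16, 13 and 5 counts in GM and 612, 511 and 344 counts in DM samples. The lowest DM sample was far above the highest GM sample, and it rose by 5.60 ± 0.35 (adjusted p = 2.30e-07). KCNJ11, the pore subunit of the ATP-sensitive channel of skeletal muscle and pancreatic beta cells, had 21, 18 and 16 counts in GM and 119, 81 and 169 counts in DM samples. It rose by 2.91 ± 0.32 (adjusted p = 1.69e-05). The sulfonylurea receptors with which both assemble rose too. ABCC9 had 98, 73 and 73 counts in GM and 1828, 1898 and 1477 counts in DM samples, which gave a log2 fold change of 4.59 ± 0.15 (adjusted p = 5.79e-09). ABCC8 had 10, 3 and 5 counts in GM and 67, 51 and 89 counts in DM samples, with a log2 fold change of 3.67 ± 0.44 (adjusted p = 3.31e-05). All 4 of these genes were higher in each DM sample than in any GM sample.

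KCNJ8 and ABCC9 are also known from pericytes and smooth muscle. Of the 8 markers of those cells, which included ABCC9, 2 were called higher, ABCC9 itself and PDGFRB, and none lower. By sign, 6 of the 8 were higher in DM samples, among them MYH11 (0.78, adjusted p = 0.00554, under the fold threshold), and 2 were lower, CNN1 (-0.05) and RGS5, which had 0 to 4 counts in every sample and was not called (adjusted p = 0.0859). KCNJ2, the strong inward rectifier that is known to hyperpolarize myoblasts before fusion, had 401, 274 and 280 counts in GM and 416, 373 and 495 counts in DM samples. Its CPM ranges did not overlap, but the change of 0.60 ± 0.16 (adjusted p = 0.00793) was under the fold threshold. No gene was listed under the symbol KCNJ12, a second strong inward rectifier of muscle. Of the 13 listed inward rectifiers 8 had 1 to 9 counts and KCNJ1 had none.

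**Figure D4:**
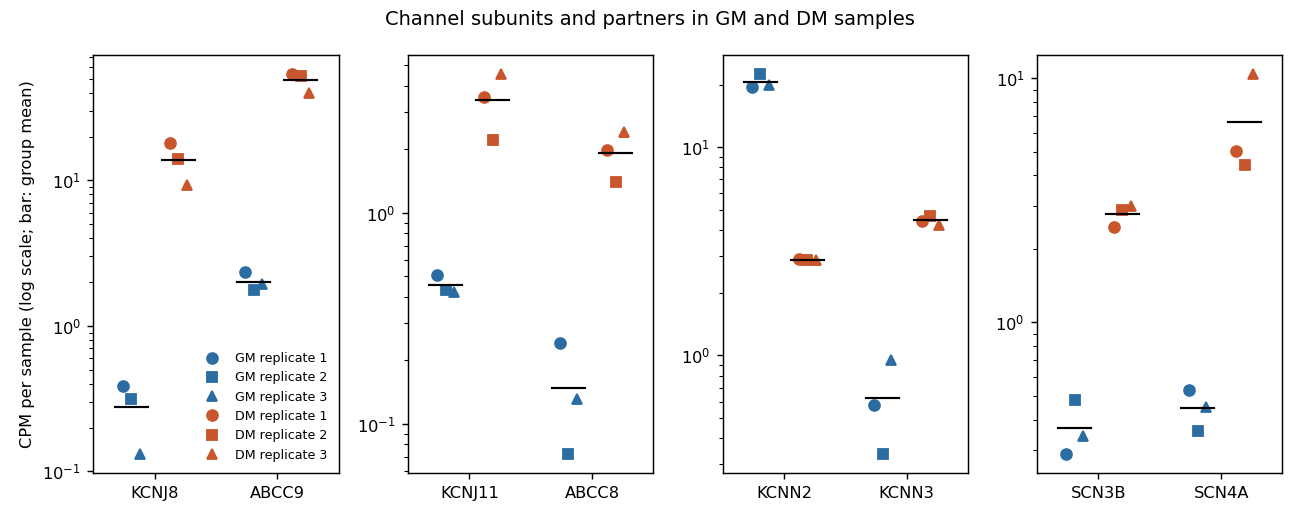
TMM-normalized CPM (log axis, a scale of its own in each panel) of the ATP-sensitive pore subunits with their receptors (KCNJ8 and ABCC9, KCNJ11 and ABCC8), the small-conductance subunits KCNN2 and KCNN3, and the sodium channel subunits SCN3B and SCN4A, in GM samples (blue) and DM samples (orange), with a marker for each replicate and a bar at the mean. Both ATP-sensitive pairs were higher in all DM samples, KCNN2 was lower, and KCNN3, SCN3B and SCN4A were higher.

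Of the K2P channels, which leak potassium at rest, 9 of 15 were tested and 2 were called. That is 22.2%, close to the 25.3% of all tested genes. KCNK12 had 2924, 3508 and 2998 counts in GM and 2228, 2337 and 2975 counts in DM samples. Its groups overlapped, with a log2 fold change of -0.15 ± 0.10 (adjusted p = 0.199). KCNK1, a weakly inward-rectifying leak subunit, had 302, 263 and 266 counts in GM and 48, 45 and 24 counts in DM samples. It fell by 2.65 ± 0.25 (adjusted p = 5.97e-06), the largest fall of the class. KCNK2, a leak channel opened by stretch, had 0, 1 and 1 counts in GM and 15, 13 and 6 counts in DM samples. It was called higher at a low level (adjusted p = 0.00207), with a ratio of CPM of 19.2 whose counting interval ran from 4.91 to 165. KCNK6 had 190, 192 and 152 counts in GM and 138, 136 and 141 in DM samples and was not called (-0.19 ± 0.16, adjusted p = 0.327). KCNK5 was lower in each DM sample (73 to 88 counts against 43 to 47), with a change of -0.65 ± 0.24 (adjusted p = 0.0350) that was under the fold threshold.

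The sodium channel pore gene of adult skeletal muscle rose. SCN4A (chr19:48794399-48825660 in the table, which names no build), the main sodium channel of adult skeletal muscle, had 22, 15 and 17 counts in GM and 171, 161 and 387 counts in DM samples. It rose by 3.89 ± 0.37 (adjusted p = 5.99e-06), and by 3.40 without DM replicate 3, which was the highest. Per length its level was 0.0839 ± 0.0162 RPKM in GM and 1.17 ± 0.586 RPKM in DM samples.

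Other pore genes lay near or under the fold threshold. SCN8A had the highest mean RPKM of the sodium channel pore genes in DM samples, at 1.61 ± 0.225, with SCN4A within its own SD of that value. It had 206 to 287 counts in GM and 334 to 464 in DM samples (log2 fold change 0.77 ± 0.15, adjusted p = 0.000924). SCN9A (210 to 241 against 83 to 131 counts) and SCN7A, which encodes a sodium sensor not opened by voltage (311 to 379 against 139 to 242), were lower in every DM sample, at -0.91 ± 0.19 and -0.79 ± 0.20, with adjusted p-values of 0.00150 and 0.00576. With all samples none of these 3 reached the fold threshold, but without DM replicate 2 SCN7A (-1.02) and SCN9A (-1.02) were called lower, as was SCN9A with library sizes alone (-1.0025). SCN2A and SCN3A were not called, and SCN1A, SCN10A and SCN11A had 2 to 6 counts in all.

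Beta subunits tune the gating and placement of the sodium pore. SCN3B had 12, 20 and 13 counts in GM and 83, 106 and 111 counts in DM samples. It rose by 2.90 ± 0.29 (adjusted p = 7.55e-06). Per length it stood at 0.412 ± 0.109 RPKM in GM and 2.89 ± 0.340 RPKM in DM samples. SCN4B had 1 count in each GM sample and 0, 8 and 3 counts in DM samples (adjusted p = 0.176).

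Epithelial sodium channels are not opened by voltage and are best known from kidney and lung. SCNN1D, their delta subunit, had 13, 8 and 18 counts in GM and 122, 119 and 111 counts in DM samples. Its DM samples were nearly alike, and it rose by 3.33 ± 0.32 (adjusted p = 6.09e-06). SCNN1A was called on 2 to 8 counts in GM and 8 to 22 in DM samples (adjusted p = 0.0373), with a log2 fold change of 1.76 that went to 2.50 without GM replicate 2. The call was lost without DM replicate 3 (adjusted p = 0.146), without DM replicate 1 (0.0518) and without GM replicate 1 or 3 (0.115 each). SCNN1B had 0 to 9 counts per sample and was not called with all samples, but was called higher without DM replicate 2 (adjusted p = 0.0334). SCNM1 had 902, 952 and 911 counts in GM and 621, 624 and 737 in DM samples, a change of -0.31 ± 0.09 (adjusted p = 0.0103) under the fold threshold.

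DM replicate 3 lay apart from the other DM samples in a number of channel genes. With 0.1 CPM added to each value, for 25 of the 69 tested members its CPM was over 1.5-fold away from the mean of DM replicates 1 and 2, 13 higher and 12 lower, or 36.2% against 15.1% of all tested genes. The members higher in it included KCNA1, KCNA6 (22, 15 and 75 counts in the DM samples), KCNMB1, KCNMA1, KCNAB1 and SCN4A, and those lower in it KCND3, KCNB2, KCNG1 and KCNT1. Summed markers of neurons and glia were 276 to 315 CPM in GM samples, 310 and 305 CPM in DM replicates 1 and 2 and 586 CPM in DM replicate 3. SNAP25, of nerve terminals, had 3, 3 and 153 counts in the DM samples, and STMN2 had 10406, 11062 and 21429, whereas ELAVL4 and RBFOX3 stayed at 0 or 1 count. The summed myogenic markers were also highest in this sample, at 9834 CPM against 7017 and 7346. The part of these markers, or of low counts, in its channel levels was not tested.

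Annotated transcripts were also tested. Of 120 listed transcripts 80 were tested and 39 called, 28 higher and 11 lower, or 48.8% against 25.6% of all tested transcripts. Of the 12 genes with more than 1 listed transcript, none had transcripts that differed in their call. In 11 of these the transcript counts summed to more than the gene's count, so reads were counted for more than 1 transcript and the transcripts are not separate measurements.

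Genes outside the naming rule that were listed as working beside these channels were called in both directions. Of 50 such genes, 42 were listed, 36 tested and 18 called, 11 higher and 7 lower, a share of 50%, with a median log2 fold change of 0.32. Over all tested genes 25.3% were called, 15.0% higher and 10.3% lower, and the median was 0.03. Of 10 tested channel partners 5 were called higher and 1 lower. Besides ABCC8 and ABCC9, those called higher included CNTN1, an adhesion protein that binds sodium channels, which had 0, 0 and 1 counts in GM and 9, 27 and 1 counts in DM samples and so rested on a pair of DM samples.

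The sodium pump restores the gradients that the channels run down, and genes named in its subunit families were called in both directions. Of 12 tested genes of these families 3 were called higher and 3 lower, or 50% called against 25.3% of all tested genes. Their summed level was 1110 to 1168 CPM in GM and 662 to 876 CPM in DM samples. ATP1B4, a muscle gene placed in the beta family by its symbol, had 178, 129 and 194 counts in GM and 1379, 1710 and 2231 in DM samples (3.57 ± 0.19, adjusted p = 7.42e-08). Whether its protein serves the pump in these cells was not tested. ATP1A4 had 7, 22 and 6 against 50, 56 and 51 counts (2.34 ± 0.45, adjusted p = 0.00102). Both were higher in every DM sample than in any GM sample. The beta subunit ATP1B1 was more abundant and fell, with 5779, 5589 and 5199 counts in GM and 1226, 1457 and 1691 in DM samples (-1.75 ± 0.08, adjusted p = 4.36e-08). ATP1B3, of the same family, and the pump regulator FXYD6 were also called lower, each at -1.15.

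Among 14 tested resting and cation channels of other families, 3 were called higher and 3 lower. That is 42.9% called, against 25.3% of all tested genes. NALCN, which passes a steady sodium leak, had 14, 12 and 20 counts in GM and 244, 223 and 212 in DM samples. It rose by 4.04 ± 0.26 (adjusted p = 2.76e-07). UNC79, which is part of the same channel complex, had 2, 2 and 1 against 10, 4 and 10 counts and was called higher (adjusted p = 0.0168). CLCN1, the chloride channel that carries most of the resting conductance of adult muscle fibres, had 0, 5 and 9 counts in GM and 16, 4 and 10 in DM samples, with overlapping groups (adjusted p = 0.240).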

How the data were processed

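A set of 6 polyA RNA-seq libraries were used, 3 GM and 3 DM samples, grouped by their labels. The authors deposited raw counts per gene and per mRNA transcript without normalization. They also deposited RPKM, computed from the counts with the annotated length in bases and the sample's total. The methods name HISAT2 and a buffalo genome, the submitters' processing notes name Bowtie 0.12.2 with the builds mm8 and mm9, and the tables list cattle Ensembl identifiers, so the build is not named here; library strandedness is not given in the sources used here. Among members, KCNJ13 (3 counts) lies within GIGYF2 on the opposite strand and could not be told apart from it.

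Features with at least 10 counts over the 6 samples were fitted with edgeR 4.0.16 in R 4.3.3 by its quasi-likelihood test (TMM factors 0.948 to 1.04, no covariate), with Benjamini-Hochberg adjustment over all of them. A feature was called at an adjusted p-value under 0.05 together with a log2 fold change larger than 1 in either direction. CPM are TMM-normalized, and standard errors come from the F statistic. Counting intervals of ratios, and the limit of 3 counts behind a count of 0, cover counting error only. The fit was tested on simulated data. Alternatives were DESeq2 1.42.0, which the methods name, other scalings, filters and fold thresholds, a replicate block and leaving out each sample. Other settings are in the closing section. The lists of differential features deposited by the authors and the ncRNA table were not used.

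Members and gene lists were chosen with earlier results of these data known. Values in every sample were given for called members with a mean of at least 1 CPM in a phase, for uncalled members with a mean of at least 10 CPM over the samples, for a list of channels known from muscle, and for the partners ABCC8, ABCC9, CLCN1 and the 2 largest called changes of each partner list. KCNA1, KCNA3, KCNA4, KCNA6, KCNAB2, KCNAB3, KCNH7, KCNK5, KCNMB1, KCNMB3, KCNQ5, KCNT1, KCNV2, SCN7A, SCN8A, SCN9A, SCNN1A, SCNN1B, ATP1B1, ATP1B3 and FXYD6 were named after their values were seen. Some genes that this rule selects are counted in the totals but not reported by name here.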

Additional observations from a re-analysis of the deposited data

How the results depend on the processing

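The count of 33 called members (24 higher, 9 lower) came to 29 with DESeq2, 34 with library sizes alone, 34 with DESeq2 size factors, 27 with edgeR's filterByExpr, and 33 with no filter or with protein-coding genes only. Of the 33, DESeq2 kept 29 (those lost included KCNA4, KCNV2 and SCNN1A). Only genes of at least 1 RPKM in more than 50% of the samples, the rule in the study's methods, left 15 members tested and 5 called, 3 higher and 2 lower, since fewer members were tested. A test against a fold change of 2 left 20 called, 15 higher and 5 lower, and with no minimum fold 42 were called, 14 of them lower. With 1 sample left out at a time, 28 to 37 were called (20 to 26 higher, 8 to 11 lower), 26 of the 33 were kept in every such fit, and the median log2 fold change ran from 0.52 (without DM replicate 3) to 0.91. The labels do not say whether replicate numbers pair the samples. In their deviations from the group mean, same-numbered GM and DM samples correlated at -0.022 to -0.0076 and the others at -0.012 to 0.024. With 3 samples per group and such weak correlations in every pair, this cannot decide the question. With the replicate block 31 members were called, and those lost included SCNN1A. Among uncalled genes the direction turned for KCND3 without GM replicate 1 (0.09) and without DM replicate 3 (0.26), with a range from -1.04 to 0.26 over left-out samples. For KCNH2 it turned with library sizes alone (-0.093), with the replicate block (-0.0068) and over left-out samples (-0.14 to 0.18). For KCNN4 left-out samples gave -0.71 to 0.072. Single-gene alternatives were run only for the 34 tested members that the rule for values in every sample selects. Of these 339 fits 330 kept direction and call, 1 lost its call (KCNIP2 without GM replicate 2) and 8 turned. Fits in which a gene was not tested are left out of this count. Among all 33 called members, 7 were not called or not tested in at least 1 fit that left out a sample. Uncalled members that were called in at least 1 of these fits were SCN7A, SCN9A, KCNMB3, KCNN1, KCNA6, KCNC1 and SCNN1B. Members under 10 counts could not be tested at this depth.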

Other observations

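Channel genes often lie side by side in the genome. Of the 107 members, 42 lay in 16 runs of neighbours less than 1000000 bases apart on a chromosome of the table. In the run of sodium channel genes SCN7A, SCN9A, SCN1A, SCN2A and SCN3A on chromosome 2, no gene was called. SCN7A and SCN9A had log2 fold changes of -0.79 and -0.91, SCN2A had 0.38, and SCN1A had 4 counts in all. In the run of SCN3B, KCNC1 and KCNJ11 on chromosome 15, SCN3B and KCNJ11 were called higher, with log2 fold changes of 2.90 and 2.91, and KCNC1 had 0 to 16 counts per sample and was not called. Whether neighbours moved together more than other genes was not tested.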
